A study of Mus musculus with 4 samples.

Results

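Breakdown of amino acids is one of the metabolic functions by which the liver is defined, and 43 genes of it were examined in livers without Cnot3. They were chosen by symbol: enzymes of tyrosine, tryptophan, histidine, glycine and serine, proline and ornithine, branched chain and methionine breakdown, with 2 enzymes of uracil and thymine breakdown, Dpyd and Dpys. Of the 43 genes, 40 had a probe set that names them alone, and all 40 passed the filter on low values, of 16758 genes measured in all. Acmsd, Sds and Amt are not analysed here. The protein Cnot3 belongs to Ccr4-Not, the deadenylase complex that trims poly(A) tails and so starts the decay of many mRNAs. RNA of whole liver was hybridised to Affymetrix 3′ expression arrays for mouse, 1 array per liver, for 2 livers labelled Control (wild type) and 2 labelled Cnot3KO, all from mice aged 4 weeks. Per the study's methods, the knockout mice carried floxed Cnot3 alleles and an Alb-cre transgene, whose albumin promoter is active in hepatocytes, while other liver cells keep the gene. The methods list several genotypes as controls, some of them with Alb-cre or floxed alleles, the labels say wild type only, and which of these the 2 Control mice carried is not given in the sources used here. The labels give no sex.

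In the liver, most of these enzymes act in hepatocytes, and each route takes the amino group off its amino acid and turns the carbon skeleton into intermediates of glucose, ketone body or nicotinamide synthesis. The routes are split between cytosol and mitochondria. Glucagon and glucocorticoids are known to raise several of these genes in fasting, through factors such as Klf15 and the C/EBP proteins. Methionine breakdown also supplies S-adenosylmethionine, the methyl donor of the cell.

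All levels and differences are log2 values of the deposited probe set intensities. Arrays are given in the order Control 1, Control 2, Cnot3KO 1, Cnot3KO 2, and a difference is Cnot3KO minus Control with its standard error (SE), with n = 2 livers per group. A gene was called higher or lower where the Benjamini-Hochberg adjusted p in limma, over all 38405 kept probe sets, was under 0.05. Cnot3 itself read 5.99, 6.04, 5.15 and 5.30, and fell by 0.79 ± 0.16 (adjusted p = 0.0372). It was not called with any 1 array left out (Control 1 0.0955, Control 2 0.0885, Cnot3KO 1 0.211, Cnot3KO 2 0.127), and where its probe set lies relative to the deleted exons was not checked. Across probe sets, arrays of different groups correlated less (Pearson's r 0.937 to 0.948) than the pair of Control arrays (0.981) or of Cnot3KO arrays (0.989).

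The livers kept high levels of hepatocyte mRNAs in both groups. All 8 measured hepatocyte markers read 10.12 or more on every array, their median difference was -0.02, 0 of them were called and 1 had an unadjusted p under 0.05. Albumin (Alb) differed by -0.02 ± 0.16 (adjusted p = 0.942). Their summed linear intensity was 61978 and 59468 in Control and 66964 and 65503 in Cnot3KO. Markers of other cells moved with the genotype: 3 of 4 cholangiocyte markers, 3 of 5 stellate cell markers, 2 of 5 macrophage markers and Ptprc, a gene of leukocytes in general, were called higher, 2 of 2 measured erythroid markers were called lower, and 0 of 4 endothelial markers were called. The T cell marker Cd3e and the B cell marker Cd79a differed by -0.19 and -0.20 (adjusted p = 0.488 and 0.604). The summed intensity of the stellate markers was 1305 to 1574 in Control and 3196 to 4127 in Cnot3KO, that of the macrophage markers 1504 to 1765 and 2860 to 3114, that of the cholangiocyte markers 32.1 to 36.4 and 166 to 308, and that of the erythroid markers 374 to 404 and 48.3 to 94.98. Their part in the differences below was not tested. In whole tissue, fewer cells of a type and less RNA per cell cannot be told apart.

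The 40 genes were abundant liver mRNAs. Their Control means ran from 7.40 for Aldh4a1 to 12.68 for Bhmt, with a median of 9.73, and every one lay at or above the 83.6th percentile of all measured genes. In Cnot3KO livers 8 of them fell (Dpys, Afmid, Dpyd, Pccb, Gcsh, Ahcy, Uroc1 and Kmo) and 1 rose (Gpt), which left 31 not called. The 8 called lower are 20% of the measured members, against 4.64% of all genes called lower. The 1 called higher is 2.5%, against 12.2% of all genes called higher. Abundant genes were called lower more often than genes as a whole: among genes with a mean of 8 or more over the 4 arrays, 11.4% were called lower and 10.3% higher, and of the 35 members at that level 6 were called lower (17.1%) and 1 higher (2.86%). Set beside genes of like abundance, the share called lower among the members was therefore nearer to the background. The members, and the further gene lists below, were chosen with earlier results of these data known. The shares given here and below describe these lists and are no test of them.

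The shift was wider than the calls. The median difference of the 40 members was -0.36, against 0.002 over all genes, and 29 members had a difference below 0, which is 72.5% of them, against 49.8% of all genes. Both Cnot3KO livers read below both Control livers for 25 members (62.5%), against 30.3% of all genes, and above both for 7 members (17.5%), against 34.8% of all genes. Of the 1905 genes with a mean of 8 or more, 676 lay below and 677 above in this way. Of the 35 members at that level, 21 lay below (60%) and 7 above (20%). Without adjustment, 16 of the 40 members had a lower and 3 a higher level at a limma p under 0.05. Over all 16758 genes these counts were 2079 and 3842. At a mean of 8 or more they were 433 and 394 of 1905 genes, and 12 and 3 of 35 members. The number of calls depended on single livers: 2 members were called lower without Control replicate 1, 4 without Control replicate 2, 3 without Cnot3KO replicate 1 and 6 without Cnot3KO replicate 2. The median stayed below 0 in each of these fits, from -0.52 to -0.21.

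**Figure D1:**
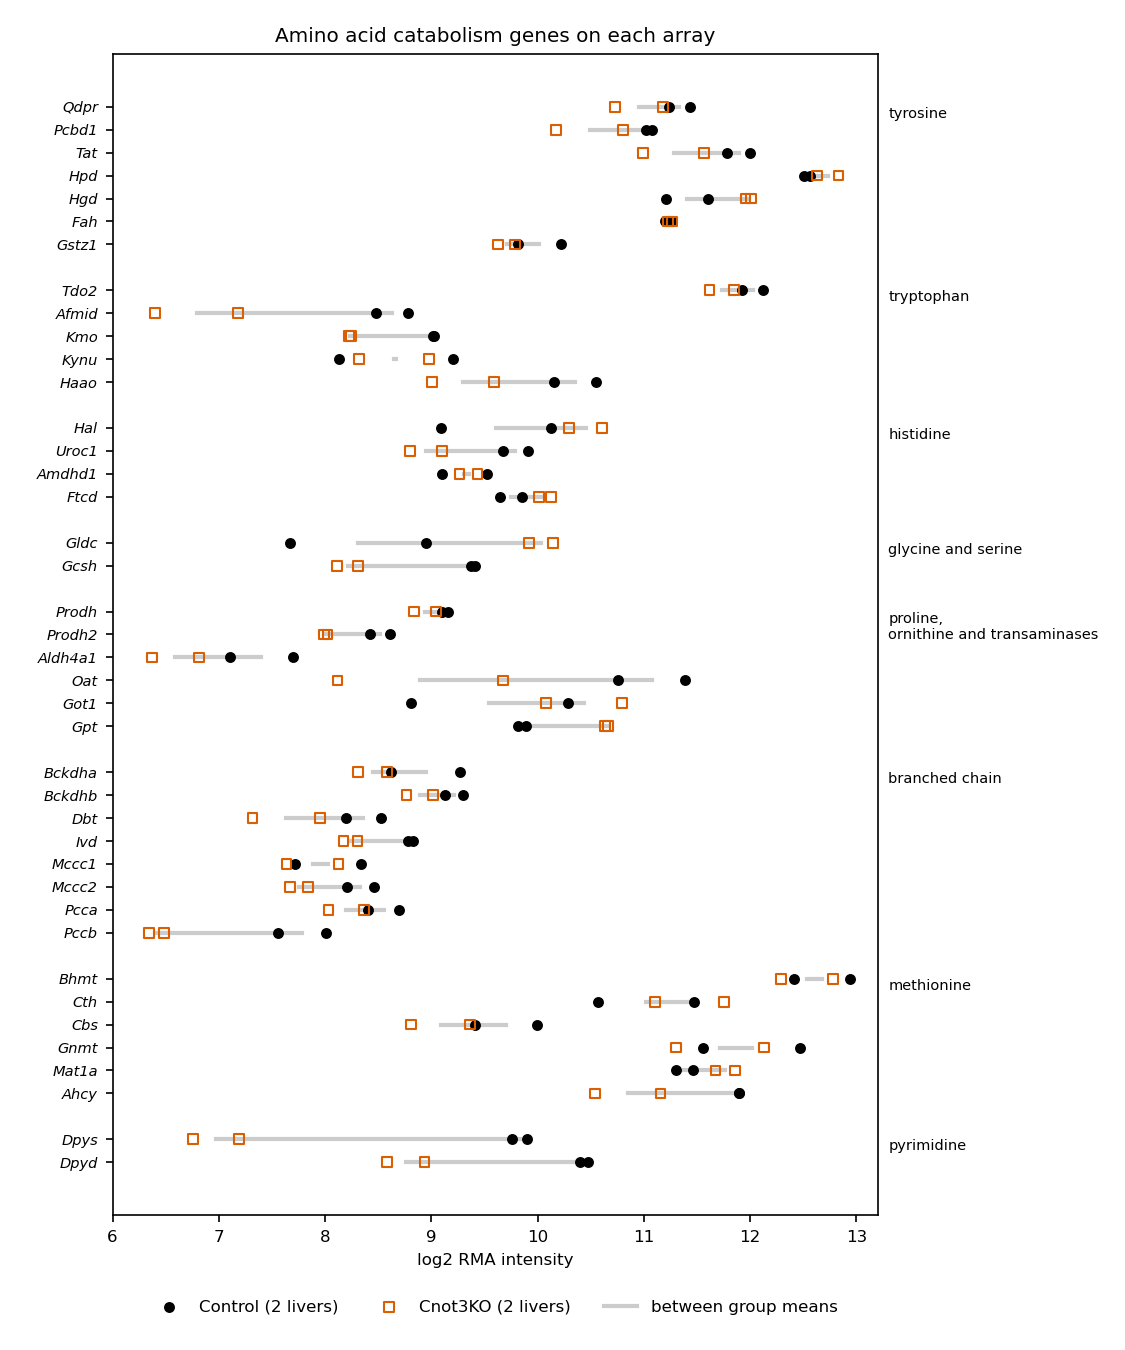
Log2 intensity (x axis) of each of the 40 measured genes, ordered by amino acid group, on the 2 Control arrays (black points) and the 2 Cnot3KO arrays (open orange squares), with a grey bar between the group means. Dpys, Dpyd and Afmid show wide gaps between the groups, while the Fah values of all 4 livers lie within 11.20 to 11.27.

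**Figure D2:**
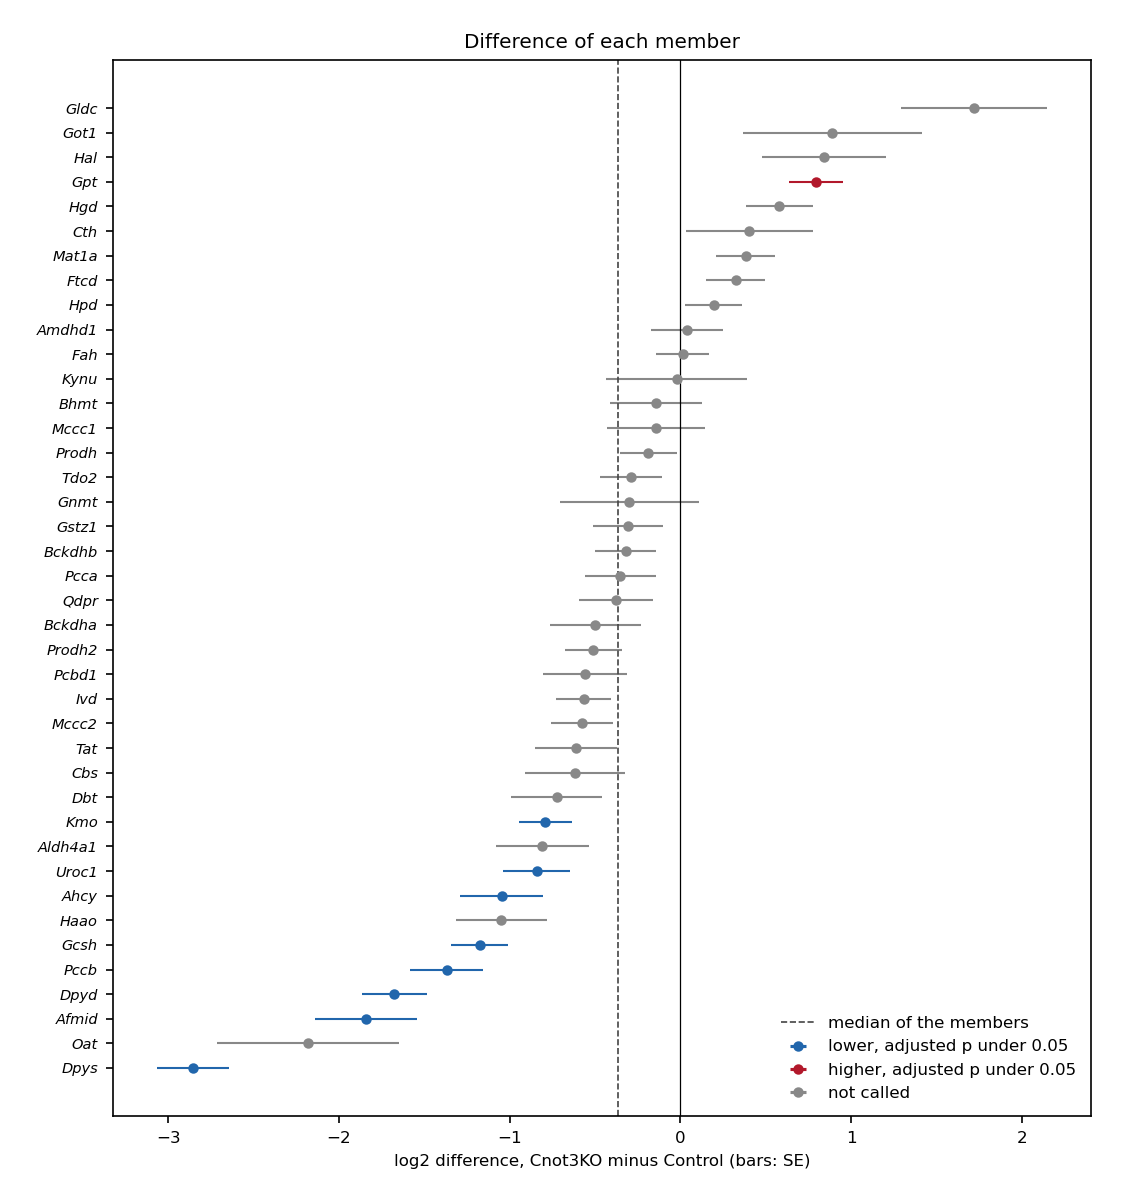
Log2 difference between Cnot3KO and Control for each gene, sorted, with bars of 1 SE and a dashed line at the median of -0.36. Blue marks the 8 genes called lower and red the 1 gene called higher, and Gldc and Oat show large differences with wide bars that were not called.

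The clearest result was in uracil and thymine breakdown. Dpyd reduces uracil and thymine, the first and rate-limiting step, and Dpys opens the ring of the product. Dpys read 9.90, 9.76, 6.76 and 7.19, and fell by 2.86 ± 0.21 (adjusted p = 0.00431), to 0.138 times the Control level. Dpyd read 10.47, 10.40, 8.59 and 8.94, and fell by 1.68 ± 0.19 (adjusted p = 0.00955), to 0.313 times the Control level. For both genes the Control livers were nearly equal, and both Cnot3KO livers lay far below them. The 2 other Dpys probe sets differed by -2.85 and -2.77 and the other kept probe set of Dpyd by -1.98, and all of these were called. Dpys was called with any 1 of the 4 arrays left out, and Dpyd in all but the fit without Control replicate 1 (adjusted p = 0.0501). Upb1, which carries out the last step from the ring-opened product to beta-alanine, read 10.80, 10.65, 9.89 and 10.13, with a difference of -0.71 ± 0.18 that was not called (adjusted p = 0.0591). The 2 uridine phosphorylases, which free uracil from uridine, lay on opposite sides of 0: Upp1 rose from 3.15 and 3.66 to 5.50 and 6.59 (2.65 ± 0.40, adjusted p = 0.017), and Upp2 read 10.33, 8.76, 6.99 and 7.67 (-2.22 ± 0.54, adjusted p = 0.0559). Upp1 lost its call without Control replicate 1 or without Control replicate 2, with an adjusted p of at most 0.0844.

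Tryptophan is broken down by the kynurenine pathway, which leads to nicotinamide nucleotides. Of its 5 measured members 2 fell, 0 rose, all 5 differences were below 0 and their median was -0.79. Tdo2, the dioxygenase that opens the pathway in liver, read 11.92, 12.12, 11.62 and 11.85 on its brightest probe set (-0.29 ± 0.18, adjusted p = 0.335). The other Tdo2 sets differed by -1.27 and -1.16. Afmid, which removes the formyl group to give kynurenine, read 8.48, 8.78, 6.40 and 7.18, and fell by 1.84 ± 0.30 (adjusted p = 0.0201), to 0.279 times Control. Kmo, the hydroxylase of kynurenine, read 9.02, 9.03, 8.22 and 8.24, and fell by 0.79 ± 0.16 (adjusted p = 0.0327). For both genes the groups lay clearly apart, and the 2 livers of each group were nearly equal for Kmo. Kynu, which cleaves 3-hydroxykynurenine, read 8.13, 9.21, 8.32 and 8.98, so that the livers of each group lay further apart than the group means (-0.02 ± 0.41, 95% interval -1.06 to 1.02). Haao, the dioxygenase that follows, read 10.15, 10.55, 9.01 and 9.59 (-1.05 ± 0.27, adjusted p = 0.061), with no overlap between the groups. Qprt, which makes the first nucleotide of the nicotinamide series, differed by 0.20 ± 0.19 (adjusted p = 0.525). Afmid was not called when either Control liver was left out (replicate 1, adjusted p = 0.0734, replicate 2, 0.0773), nor Kmo when any 1 of the arrays was (Control 1 0.0892, Control 2 0.0755, Cnot3KO 1 0.174, Cnot3KO 2 0.15).

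In the branched chain group all 8 differences were below 0 and their median was -0.53. Both Cnot3KO livers read below both Control livers for 7 of the 8. This held for 30.3% of all genes, and for 676 of the 1905 with a mean of 8 or more. Only Pccb was called, where 4.64% of all genes and 11.4% of those with a mean of 8 or more were called lower. Bckdha, Bckdhb and Dbt encode the E1 alpha, E1 beta and E2 subunits of the branched chain ketoacid dehydrogenase, which takes the ketoacids of leucine, isoleucine and valine past the committed step. Their differences were -0.50 ± 0.27, -0.32 ± 0.18 and -0.73 ± 0.27 (adjusted p = 0.266, 0.286 and 0.141). In the leucine branch, Ivd, the isovaleryl-CoA dehydrogenase, differed by -0.57 ± 0.16 (adjusted p = 0.0794), and Mccc2, the beta subunit of methylcrotonyl-CoA carboxylase, by -0.58 ± 0.18 (adjusted p = 0.0985). Mccc1, its alpha subunit, read 7.72, 8.34, 7.64 and 8.13 on its brightest probe set, with overlapping groups (-0.14 ± 0.29, 95% interval -0.87 to 0.58). Pccb, the beta subunit of propionyl-CoA carboxylase, read 7.55, 8.01, 6.34 and 6.49, and fell by 1.37 ± 0.21 (adjusted p = 0.0185), to 0.387 times Control. Its partner Pcca, the alpha subunit, differed by -0.35 ± 0.21 (adjusted p = 0.304), and the difference between the partners was not tested. The call of Pccb was lost without Cnot3KO replicate 1 (adjusted p = 0.0794) or Cnot3KO replicate 2 (0.0512).

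Further along the same routes, 3 genes that are not among the 43 were called with large differences. Acadsb, the acyl-CoA dehydrogenase of the isoleucine branch, read 8.83, 8.84, 6.93 and 7.11 (-1.82 ± 0.17, adjusted p = 0.00651). Aldh6a1, the methylmalonate semialdehyde dehydrogenase of valine and thymine breakdown, read 10.44, 10.18, 8.62 and 8.54 (-1.73 ± 0.18, adjusted p = 0.00764). Hibadh, the hydroxyisobutyrate dehydrogenase just before it in the valine branch, read 10.95, 10.88, 9.26 and 9.59 (-1.49 ± 0.19, adjusted p = 0.0118). Each of these had a narrow spread within the groups. Ppm1k, the phosphatase that activates the ketoacid dehydrogenase, also fell, by 1.27 ± 0.20 (adjusted p = 0.0187). Hibch, the hydrolase between Acad8 and Hibadh, differed by 0.12 ± 0.19 and Acad8 by -0.65 ± 0.18 (adjusted p = 0.709 and 0.074). With 1 array left out, Acadsb and Aldh6a1 were called in 4 of 4 fits. Hibadh was called in 2 such fits (not without Control replicate 1 or Cnot3KO replicate 1) and Ppm1k in 1 (without Cnot3KO replicate 2). Acadsb has only 1 probe set, which ends in _x_at, so it was not measured once sets with the suffix _x_at or _s_at were dropped.

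**Figure D3:**
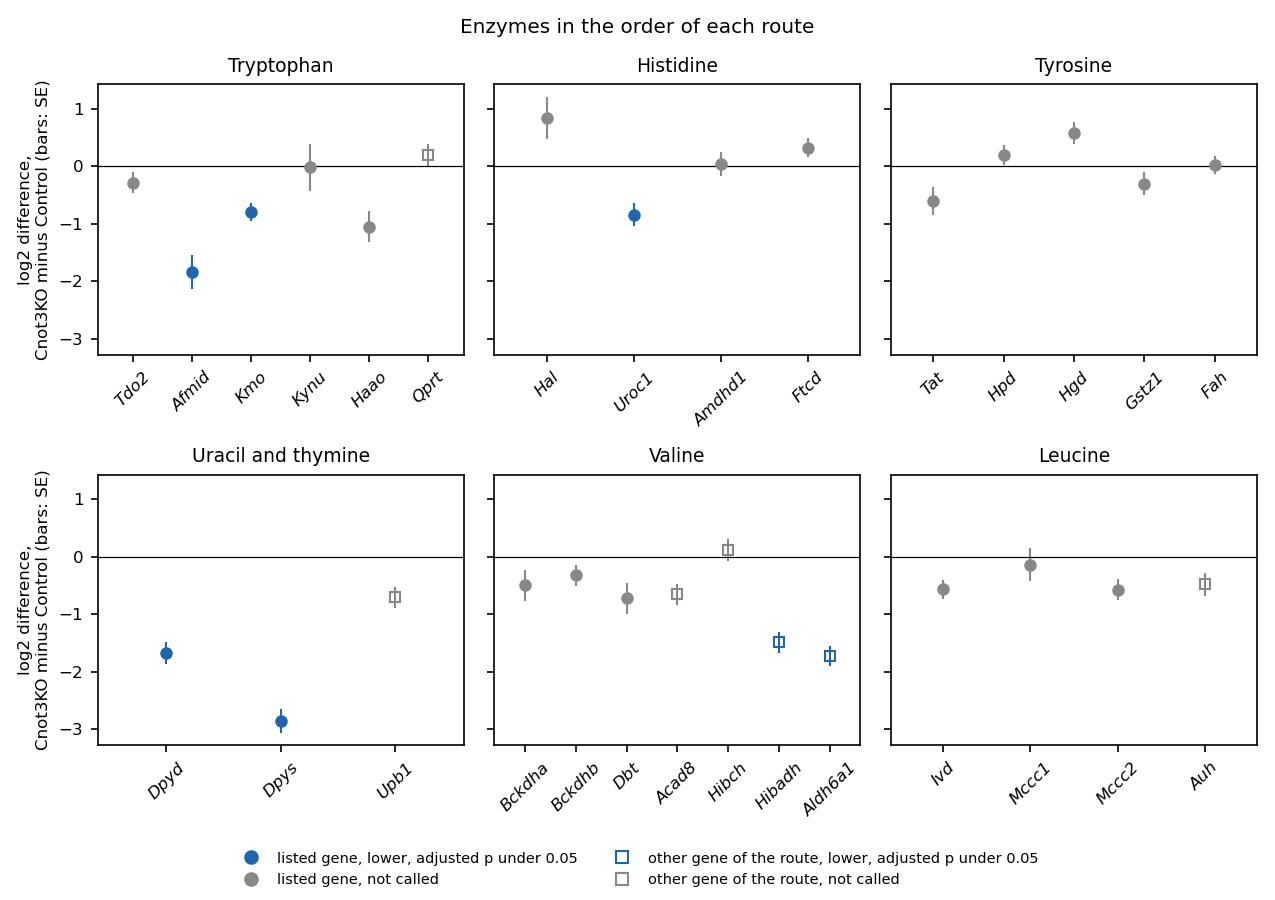
Log2 difference between Cnot3KO and Control (y axis, bars of 1 SE) for genes of 6 routes, from earlier to later steps. Filled circles mark genes among the 43 listed, open squares other genes of the route and blue genes called lower. Bckdha, Bckdhb and Dbt are subunits of the same step, as are Mccc1 and Mccc2. The leucine panel starts after the dehydrogenase step it shares with valine. Only steps with a gene in the lists are drawn, each gene by its brightest probe set. On these sets Afmid, Kmo and Haao stand below Tdo2, Kynu and Qprt, and Hibadh and Aldh6a1 below the earlier steps of valine breakdown. The other Tdo2 sets, not drawn, differed by -1.27 and -1.16, further below 0 than Kmo and Haao.

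Histidine breakdown was divided. Hal, the lyase that releases ammonia from histidine in the first step, read 9.09, 10.13, 10.30 and 10.61 (0.84 ± 0.36, adjusted p = 0.19), with the 2 Control livers further apart than the group means. Uroc1, the urocanase of the second step, read 9.91, 9.68, 8.80 and 9.10, and fell by 0.84 ± 0.20 (adjusted p = 0.049), to 0.558 times Control. Its other probe set fell by 1.24 ± 0.27 (adjusted p = 0.0419). Amdhd1, the third enzyme, read 9.10, 9.53, 9.27 and 9.43, with both Cnot3KO livers inside the range of Control (0.04 ± 0.21, 95% interval -0.49 to 0.57). Ftcd, which passes the last carbon to folate, differed by 0.32 ± 0.17 (adjusted p = 0.263). The call of Uroc1 was narrow: it was lost without the filter on low values (adjusted p = 0.0506) and without any 1 array (Control 1 0.142, Control 2 0.0793, Cnot3KO 1 0.244, Cnot3KO 2 0.101). Hal was called higher without Control replicate 2 (1.36, adjusted p = 0.0473).

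Glycine is split by the mitochondrial glycine cleavage system, in which Gldc is the decarboxylase (P protein) and Gcsh the lipoyl carrier (H protein). The 2 measured subunits lay on opposite sides of 0. Gcsh read 9.41, 9.37, 8.12 and 8.31, and fell by 1.18 ± 0.17 (adjusted p = 0.0152), to 0.442 times Control. Gldc read 7.67, 8.95, 9.92 and 10.15, the difference furthest above 0 among the members (1.72 ± 0.43), but it was not called (adjusted p = 0.0574), and the 2 Control livers lay 1.28 apart. Neither gene overlapped between the groups. Gcsh lost its call without Control replicate 1 (adjusted p = 0.0622) or Cnot3KO replicate 1 (0.0851), and Gldc was called without Control replicate 2 (2.36, adjusted p = 0.0315). Dld, the L protein of the system and the E3 subunit of the ketoacid dehydrogenase, differed by 0.11 ± 0.25 (adjusted p = 0.794). On the path from choline to glycine, Chdh, the choline dehydrogenase, differed by -0.55 (adjusted p = 0.119). Sardh, which oxidises sarcosine later on that path, read 9.92, 9.50, 8.02 and 8.16 (-1.62 ± 0.21, adjusted p = 0.0119), and Dmgdh, which acts on dimethylglycine just before it, fell by 1.06 ± 0.19 (adjusted p = 0.0268). Pipox, an oxidase of sarcosine and pipecolate, read 9.92, 9.67, 7.90 and 8.48 (-1.60 ± 0.25, adjusted p = 0.0179). Sardh was called in 4 of 4 fits that left out 1 array, Pipox in 1 (without Cnot3KO replicate 2) and Dmgdh in 0.

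Among the genes of proline, ornithine and transamination, 1 rose and 0 fell. Gpt, the cytosolic alanine aminotransferase, read 9.82, 9.89, 10.63 and 10.67, and rose by 0.80 ± 0.16 (adjusted p = 0.033), to 1.74 times Control. That probe set ends in _s_at, a suffix for sets whose probes can match related transcripts, and the other Gpt probe set read 5.90, 5.73, 5.84 and 5.86 (0.04 ± 0.16, adjusted p = 0.893). The call of Gpt was also lost without any 1 array (Control 1 0.0962, Control 2 0.0687, Cnot3KO 1 0.162, Cnot3KO 2 0.161). Gpt2, the mitochondrial form, went the other way: it read 10.19, 9.79, 8.70 and 8.69, and fell by 1.30 ± 0.20 (adjusted p = 0.0173). Gpt2 was called in 1 of 4 fits with an array left out, the one without Control replicate 2. Got1, the cytosolic aspartate aminotransferase, read 8.81, 10.29, 10.08 and 10.79 (0.89 ± 0.52, adjusted p = 0.307), and its mitochondrial partner Got2 differed by -0.03 ± 0.16 (adjusted p = 0.916). Oat, the ornithine aminotransferase, read 10.76, 11.39, 8.12 and 9.67 (-2.18 ± 0.53, adjusted p = 0.0559). Both Cnot3KO values of Oat lay more than 1 below Control, but the 2 knockout livers were 1.55 apart. With 1 array left out, the difference of Oat ran from -2.96 (without Cnot3KO replicate 2) to -1.40 (without Cnot3KO replicate 1). Prodh, the proline dehydrogenase, read 9.16, 9.10, 8.84 and 9.04 (-0.19 ± 0.17, 95% interval -0.61 to 0.24). Prodh2, which oxidises hydroxyproline, differed by -0.51 ± 0.17 (adjusted p = 0.107), and Aldh4a1, the dehydrogenase both routes share, by -0.81 ± 0.27 (adjusted p = 0.116).

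Genes of glutamine and asparagine metabolism were looked at as neighbours of these routes. Glul, the glutamine synthetase found in hepatocytes around the central vein, read 10.53, 10.26, 8.82 and 7.60, and fell by 2.18 ± 0.41 (adjusted p = 0.0292). Asrgl1, an asparaginase-like enzyme, read 5.36, 5.16, 7.45 and 7.08, and rose by 2.01 ± 0.20 (adjusted p = 0.00748), while Aspg, an asparaginase, differed by -0.38 (adjusted p = 0.303). Asrgl1 was called with any 1 array left out, and Glul lost its call without Control replicate 1 or Control replicate 2 (adjusted p of at most 0.122).

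The tyrosine genes had 0 calls by limma among 7, with 1 lower and 1 higher at an unadjusted p under 0.05 and a median difference of -0.31. They were among the most abundant mRNAs of these arrays, with Control means from 10.02 to 12.54. Tat, the aminotransferase of the first step, differed by -0.61 ± 0.24 (adjusted p = 0.16). Hpd, which makes homogentisate, differed by 0.19 ± 0.17 (adjusted p = 0.474). Hgd, the homogentisate dioxygenase, read 11.21, 11.60, 11.96 and 12.01 on its brightest probe set (0.58 ± 0.20, adjusted p = 0.119). Gstz1, the maleylacetoacetate isomerase, differed by -0.31 ± 0.20 (adjusted p = 0.361). Fah, the last enzyme, read 11.26, 11.20, 11.23 and 11.27, with all 4 livers nearly equal (0.01 ± 0.16, 95% interval -0.38 to 0.41). Qdpr and Pcbd1, which recycle the pterin cofactor used to make tyrosine from phenylalanine, differed by -0.38 ± 0.22 and -0.56 ± 0.25 (adjusted p = 0.296 and 0.196).

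In methionine breakdown, 1 of 6 genes fell. Ahcy, which hydrolyses S-adenosylhomocysteine, read 11.89, 11.90, 10.54 and 11.16, and fell by 1.05 ± 0.24 (adjusted p = 0.0492), to 0.484 times Control. Its Control livers were alike and its Cnot3KO livers lay 0.61 apart. The call did not hold without the filter on low values (adjusted p = 0.0542) or without Control replicate 1 (0.142), Control replicate 2 (0.127) or Cnot3KO replicate 1 (0.194). Mat1a, which makes S-adenosylmethionine in liver, differed by 0.38 ± 0.17 (adjusted p = 0.203), and Gnmt, which uses it up on glycine, by -0.30 ± 0.41 (adjusted p = 0.652). Bhmt, which remethylates homocysteine with betaine, read 12.41, 12.94, 12.29 and 12.78, and its groups overlapped (-0.14 ± 0.27, 95% interval -0.82 to 0.54). Cbs and Cth, the enzymes of the path to cysteine, differed by -0.62 ± 0.29 and 0.40 ± 0.37 (adjusted p = 0.219 and 0.5). Of the related genes here, 2 were called: Csad, of taurine synthesis, fell by 1.28 ± 0.26 (adjusted p = 0.0347), and Mat2b, the regulatory subunit of the other methionine adenosyltransferase, rose by 0.76 ± 0.17 (adjusted p = 0.0478). Csad was called in 1 of the 4 fits with an array left out (without Control replicate 2) and Mat2b in 0.

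Across all related genes of these pathways, 68 were listed and 55 measured. Of these 11 fell and 3 rose. Of all genes, 4.64% were called lower and 12.2% higher, and of genes with a mean of 8 or more 11.4% and 10.3%. The median difference of the related genes was -0.40, which is close to the -0.36 of the members. The count of related genes called lower fell with any 1 array left out. Dhtkd1, of lysine and tryptophan breakdown, was the remaining one that fell (-1.14 ± 0.26, adjusted p = 0.0462), and it was called in 0 of the 4 fits with an array left out. Among other isozymes, Bhmt2 differed by 0.03 ± 0.19, Ido2, a second tryptophan dioxygenase, by -1.17 ± 0.37 (adjusted p = 0.102), and Shmt2, the mitochondrial serine hydroxymethyltransferase, by -0.84 ± 0.20 (adjusted p = 0.0528), while cytosolic Shmt1 differed by -0.34. Bcat1 and Bcat2, the branched chain aminotransferases, were near the low end in both groups, with Control means of 2.64 and 3.20 and differences of -0.12 and 0.08. Mat2a and Sdsl are not analysed here.

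The genes were also compared by where their proteins act. The 15 measured mitochondrial enzymes had a median difference of -0.57, with 14 below 0, 3 called lower (Gcsh, Pccb and Kmo) and 0 called higher. The 25 others had a median of -0.29, with 15 below 0 and 10 above, 5 called lower and 1 called higher. The 8 enzymes that use pyridoxal phosphate, the vitamin B6 cofactor of transamination and decarboxylation, had 4 differences on each side of 0 and a median of 0.19. They included Gldc, Got1 and Gpt above 0 and Oat below, and the other 32 members had a median of -0.44. These splits are descriptions with no test, and members of one route share their livers.

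Several genes had more than 1 probe set, which measure different stretches of a transcript, mostly near its 3′ end. For 15 members 2 or 3 sets were kept, and their differences had the same sign in 12 and the same call in 10. Hgd was the sharpest disagreement: its second set read 5.59, 5.49, 4.61 and 4.67, and fell by 0.90 ± 0.16 (adjusted p = 0.0256), against 0.58 above Control on the bright set. For Tdo2, a second set read 9.77, 10.19, 8.64 and 8.79, and fell by 1.27 ± 0.21 (adjusted p = 0.0201), and the last one differed by -1.16 ± 0.33 (adjusted p = 0.0825). Mccc1 likewise had a dimmer set that fell, from 5.17 and 5.80 to 4.17 and 4.11 (-1.35 ± 0.25, adjusted p = 0.0276). For Afmid the 2 dimmer sets differed by -1.48 ± 0.37 and -0.74 ± 0.42, in the direction of the bright one, but were not called (adjusted p = 0.0606 and 0.288). Amdhd1 and Pcca were the other genes whose sets differed in sign. The level of a member therefore depends, for Hgd, Tdo2, Mccc1, Gpt and Afmid, on the set that is read.

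**Figure D4:**
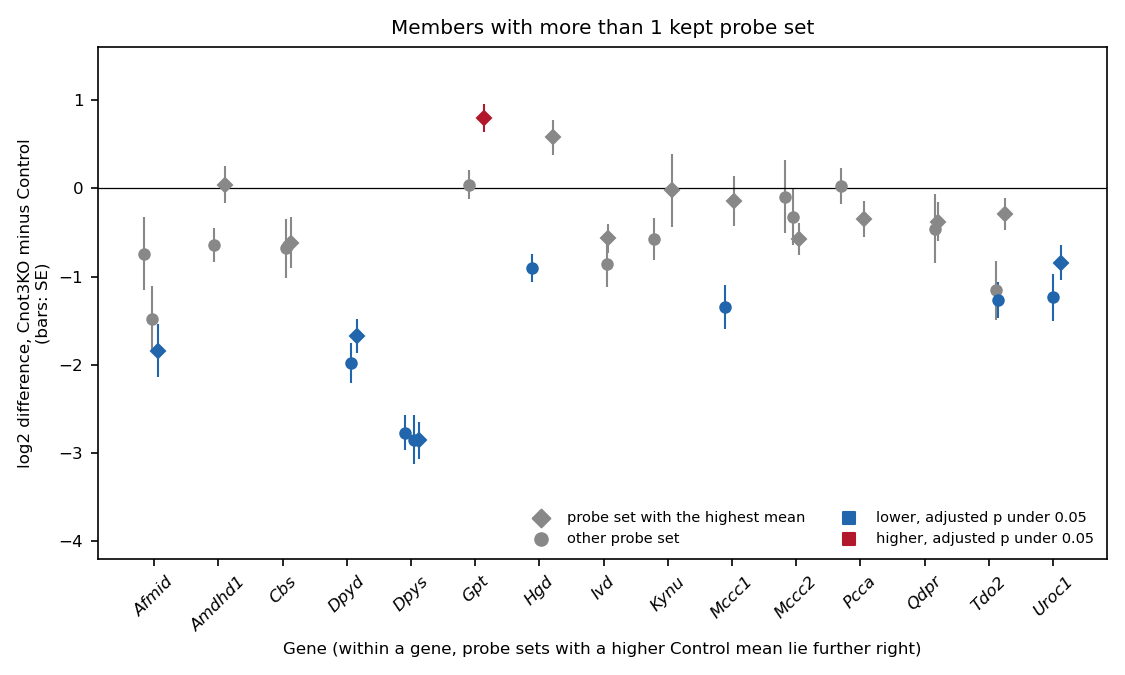
Log2 difference between Cnot3KO and Control (y axis, bars of 1 SE) for each kept probe set of the 15 genes with more than 1, with diamonds for the set with the highest mean, blue for sets called lower and red for sets called higher. The 3 sets of Dpys lie close together near -2.8, whereas the 2 sets of Hgd lie on opposite sides of 0.

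The livers of one group also differed from each other in these genes. Replicate 2 read above replicate 1 in both groups for 29 of 40 members (72.5%), against 28.9% of all genes and 36.6% of genes with a mean of 8 or more. The median gap between replicate 2 and replicate 1 was 0.23 in Control and 0.31 in Cnot3KO, not far below the size of the median difference between the groups. For all 8 measured pyridoxal phosphate enzymes replicate 2 was the higher in both groups. Got1 (1.48 in Control, 0.72 in Cnot3KO), Oat (0.63 and 1.55), Gldc (1.28 and 0.23) and Kynu (1.07 and 0.66) had wide gaps, and for 15 of the 40 members the wider of the within-group gaps exceeded the difference between the group means. Bckdha ran the other way in both groups (-0.65 and -0.27).

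**Figure D5:**
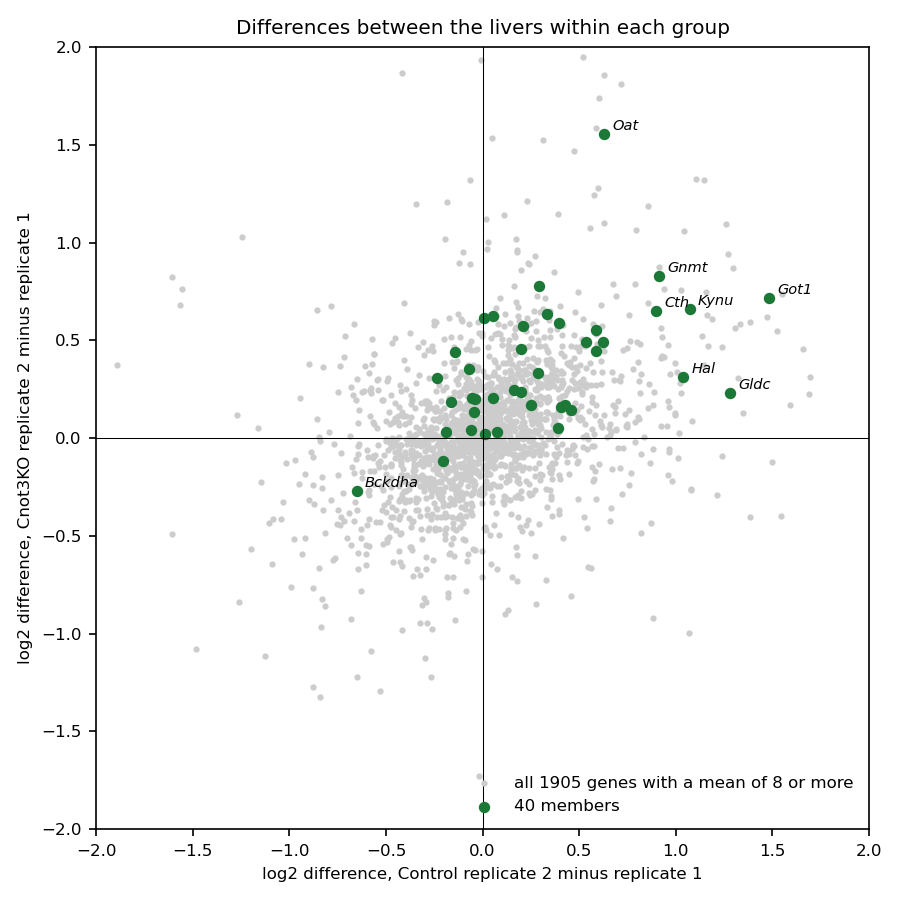
Log2 difference between replicate 2 and replicate 1 in Control (x axis) and in Cnot3KO (y axis) for the 40 members (green) and all 1905 genes with a mean of 8 or more (grey, 15 of them outside the plotted range). Most members lie at the upper right, where replicate 2 is the higher in both groups.

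Genes known to regulate amino acid breakdown were read as well. Of 11 measured, 3 fell and 0 rose. Of all genes 4.64% were called lower and 12.2% higher, and of genes with a mean of 8 or more 11.4% and 10.3%. Klf15, a factor known to drive amino acid breakdown genes in fasting, read 9.75, 9.75, 8.25 and 8.44, and fell by 1.40 ± 0.17 (adjusted p = 0.0104). Atf4, a factor of the response to amino acid shortage, fell by 0.90 ± 0.16 (adjusted p = 0.0262), and Cebpb, of the C/EBP family, by 0.89 ± 0.19 (adjusted p = 0.0378). Klf15 lost its call without Cnot3KO replicate 1 (adjusted p = 0.0523), and Atf4 and Cebpb without any 1 array, with adjusted p up to 0.151 and 0.185. Those not called were Nr3c1, the glucocorticoid receptor (-0.59 ± 0.20), Hnf4a (-0.25 ± 0.17), Cebpa (-0.76 ± 0.28), Foxa2 (0.51 ± 0.22), Onecut1 (-0.68 ± 0.53), the coactivator Ppargc1a (0.70 ± 0.29), the glucagon receptor Gcgr (-0.36 ± 0.18) and the insulin receptor Insr (-1.27 ± 0.42). What these levels have to do with those of the enzymes was not tested.

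Upstream sequence was read for 36 of the 43 genes, those with an entry in a RefSeq table of mouse gene starts on build GRCm38.p6. In the 250 bases before the start, a CCAAT box (CCAAT on either strand) stood in 23 of the 36 (63.9%), against 34.5% of the 27025 genes of the table and 36.3% of its 17492 protein-coding genes. The median GC content of these windows was 55.8% for the members and 52% for all genes. Other motifs, each searched on both strands, were the TATA box TATAAA in 5 members (13.9%, against 13% of all), the HNF1 half-site GTTAAT in 4 (11.1% against 6.52%), the C/EBP site TTGCNNAA in 4 (11.1% against 9.55%), the glucocorticoid half-site TGTTCT in 3 (8.33% against 16.2%) and the HNF4 site CAAAGTCCA in 0 (against 0.381%). A match is a string of letters in a window and was not tested as a site. Among the genes called lower, Gcsh, Uroc1 and Ahcy had a CCAAT match, Afmid, Kmo, Pccb and Dpyd had none, and Dpys had no entry. Whether a match goes with the fall was not tested. The windows of 4 genes that fell are shown, 5′ to 3′ on the strand of the gene, with CCAAT or its reverse complement in capitals, for Gcsh and Uroc1, which have 2 matches each, Ahcy, which has 1, and Dpyd, which has none. They lie at chr8:116993499-116993748 (minus strand, Gcsh), chr6:90333039-90333288 (plus strand, Uroc1), chr2:155074498-155074747 (minus strand, Ahcy) and chr3:118561930-118562179 (plus strand, Dpyd), and end 1 base before the annotated start.
Gcsh: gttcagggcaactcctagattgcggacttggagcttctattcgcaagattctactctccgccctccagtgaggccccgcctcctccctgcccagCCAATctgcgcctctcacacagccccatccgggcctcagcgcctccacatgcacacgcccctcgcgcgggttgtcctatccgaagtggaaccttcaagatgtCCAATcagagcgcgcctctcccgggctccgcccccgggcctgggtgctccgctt
Uroc1: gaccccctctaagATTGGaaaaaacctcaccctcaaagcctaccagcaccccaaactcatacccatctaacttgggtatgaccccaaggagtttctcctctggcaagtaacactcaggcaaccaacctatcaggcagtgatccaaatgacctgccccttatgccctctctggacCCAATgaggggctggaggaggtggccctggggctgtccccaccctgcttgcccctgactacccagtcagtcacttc
Ahcy: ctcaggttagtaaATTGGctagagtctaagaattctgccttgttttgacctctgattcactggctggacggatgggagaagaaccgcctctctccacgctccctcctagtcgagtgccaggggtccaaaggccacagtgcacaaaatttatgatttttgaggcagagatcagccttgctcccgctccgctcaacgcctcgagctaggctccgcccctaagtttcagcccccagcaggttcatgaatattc
Dpyd: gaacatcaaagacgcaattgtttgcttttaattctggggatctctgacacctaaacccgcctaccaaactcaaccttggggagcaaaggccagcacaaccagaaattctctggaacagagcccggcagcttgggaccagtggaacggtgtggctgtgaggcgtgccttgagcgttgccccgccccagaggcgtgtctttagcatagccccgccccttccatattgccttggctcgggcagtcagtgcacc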

How the data were processed

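RNA of 4 whole livers was measured on 1 array each, with 2 livers per group. The deposited values are linear probe set intensities, made by the authors by RMA (Robust Multi-array Average), a method of background correction, normalization between arrays and summary over probes, whose version is not given in the sources used here. They were turned to log2 with no added constant. The study's methods give a lower cut-off of 20% on expression, with no rule across arrays. Here probe sets at or under the 20th percentile on all 4 arrays were dropped, and 38405 of 45037 were kept. Gene names came from GEO's platform annotation: 34945 probe sets name 1 gene, 932 several and 9160 none. A gene was represented by the kept probe set naming it alone with the highest mean over the 4 arrays.

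Groups were compared by lmFit and eBayes (limma 3.58.1 in R 4.3.3) as a 2-sided test. The fit had 5.40 degrees of freedom in all, 3.40 of them from the prior, with Benjamini-Hochberg adjustment over the kept probe sets. The 95% intervals use the same fit. The median SE of a difference was 0.192, and the number of arrays limits the precision. Nothing in the labels says more of the replicates than that they are separate livers. The p of limma rests on the spread between these and on the prior, which is shared by all kept probe sets. The fit was tested on simulated data. Tables were summarised in pandas 2.3.3 and numpy 2.4.6 under Python 3.11.15, and plots drawn in matplotlib 3.10.9. No exact label permutation was used, since 2 against 2 cannot reach the threshold.

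The members and lists were chosen with earlier results of these data known. Every array was given for members that were called, that differed by 1 or more, or that differed least in their group, and for some others (Tdo2, Hal, Hgd and Got1, and the second probe sets) chosen after their values were seen. Of the related genes the 8 called with the largest difference were named with every array, and the rest were added after their values were seen. Alternatives were other filters, normalizations, priors and probe set rules, the replicate number as a block, the methods' t-test, and each array left out. For the related genes and regulators these were added after seeing the data.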

Additional observations from a re-analysis of the deposited data

How the results depend on the processing

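The median difference of the members stayed below 0 under all 15 alternatives, from -0.52 to -0.21, and moved by less than the SD within groups. Against 8 members called lower and 1 higher, the counts were 2 to 6 lower and 0 to 2 higher with 1 array left out. By the methods' t-test 0 were called lower and 0 higher after Benjamini-Hochberg adjustment, and 9 and 1 before it. Members called higher were 2 with a mean above the 50th percentile (Gldc added) and 0 once sets with the suffix _x_at or _s_at were dropped. The lower count stayed within 1.5 times under the other settings, from 6 without a filter (Ahcy and Uroc1 lost) to 10 when centred on ribosomal protein genes (Haao and Oat gained) or when the kept sets of each gene were averaged (Afmid lost, Haao, Oat and Tdo2 gained, with Gldc in place of Gpt as the 1 higher). Related genes called lower were 3 to 7 and higher 1 to 2 with 1 array left out, 0 and 0 by the methods' t-test, and 17 lower with sets averaged. Regulators called lower were 0 to 1 with 1 array left out and 0 by the methods' t-test. The cause of these changes was not tested, beyond the loss of arrays.

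The replicate numbers are shared by both groups, but nothing says that they mark litters or days. Deviations of same-numbered livers from their group means correlated at 0.232 over all kept probe sets and at 0.511 over the members, with only 2 pairs. With the replicate block 7 members were called lower and 2 higher, with Ahcy, Kmo and Uroc1 lost and Gldc, Haao and Oat gained. The block also ended the calls of Cnot3 (adjusted p = 0.0517), Mat2b and Cebpb, and added Aadat, Ido2, Mtr and Insr.

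Some members changed sign. Hgd was -0.16 with the mean of its probe sets, of which the dimmer one lay below Control. Fah was -0.038 and -0.062 when centred on array medians and on ribosomal protein genes. Amdhd1 was -0.011 and -0.035 under the same centrings and -0.30 with the mean of its probe sets. With 1 array left out the difference spanned -0.017 to 0.043 for Fah, -0.56 to 0.51 for Kynu, -0.17 to 0.25 for Amdhd1, -0.45 to 0.17 for Mccc1, -0.41 to 0.13 for Bhmt, -0.046 to 0.85 for Cth and -0.76 to 0.16 for Gnmt. Centring on array medians or ribosomal protein genes shifted all differences by -0.05 and -0.08. Low signals such as those of Bcat1 and Bcat2 have no background measure here, which limits what their differences can show.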
